A study of Gallus gallus with 6 samples.

Results

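Wnt proteins are secreted ligands that bind Frizzled receptors together with the co-receptors LRP5 and LRP6. Binding passes through dishevelled proteins to the axin complex and lets beta-catenin build up and act with TCF factors in the nucleus, where TLE proteins act as co-repressors. R-spondins bind LGR receptors and keep Frizzled receptors on the cell surface, while SFRP proteins, FRZB, WIF1 and DKK proteins are secreted antagonists. In mouse and human cells, signalling through beta-catenin is known for keeping preadipocytes from becoming fat cells.

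The chicken genes of these families were taken by symbol, as every listed gene named WNT, FZD, SFRP, DKK, RSPO, DVL, AXIN or TLE with a number, LGR4 to LGR6, LRP5, LRP6, FRZB, WIF1 and CTNNB1. That gave 43 of the 15491 genes in the deposited table. The samples were abdominal fat from male broilers of the Ross strain, a chicken bred for meat, and messenger RNA was sequenced in 3 heat stress and 3 thermoneutral libraries. From day 21 to day 35 of age the heat stress birds were held at 32 °C and the thermoneutral birds at 22 °C, both at 50% humidity on the same diet. No genotype or drug differed between the groups.

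Total counts ran from 38336086 to 45163458 in heat stress libraries and from 30673333 to 35836632 in thermoneutral libraries, so the heat stress libraries were the deeper ones. All 10 adipocyte markers looked for were listed, and their summed level was 38476 to 46482 TPM in heat stress libraries and 39614 to 43345 TPM in thermoneutral libraries. FABP4 led this sum, with a mean of 29319 TPM over the libraries, so the sum can hide differences in less abundant markers. Genes with 0 counts in any library are not in the table. Wnt genes that are not named below were not listed under the symbols used and were not analysed here. Whether a 0 count or another symbol left them out was not tested.

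Levels between genes are compared in TPM, the authors' relative abundance of transcripts, which takes gene length into account. RSPO3, an R-spondin, was the most abundant of the 43, with a mean of 305 TPM over the 6 libraries. It was followed by the receptor FZD4 (238 TPM), CTNNB1, which encodes beta-catenin (203 TPM), the antagonist SFRP2 (116 TPM) and the receptor FZD9 (111 TPM). WNT5A led the ligands at 87.0 TPM, ahead of WNT16 at 38.4 TPM and WNT5B at 15.1 TPM. In all, 21 genes lay between 10 and 100 TPM, these ligands among them, and 17 below 10 TPM. FZD3, FZD10 and LGR6 were the 3 genes under 1 TPM. The co-receptor LRP5 averaged 36.5 TPM, against 7.29 TPM for LRP6. Together the 43 genes made up 0.241% to 0.266% of counts in heat stress libraries and 0.218% to 0.225% in thermoneutral libraries.

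**Figure D1:**
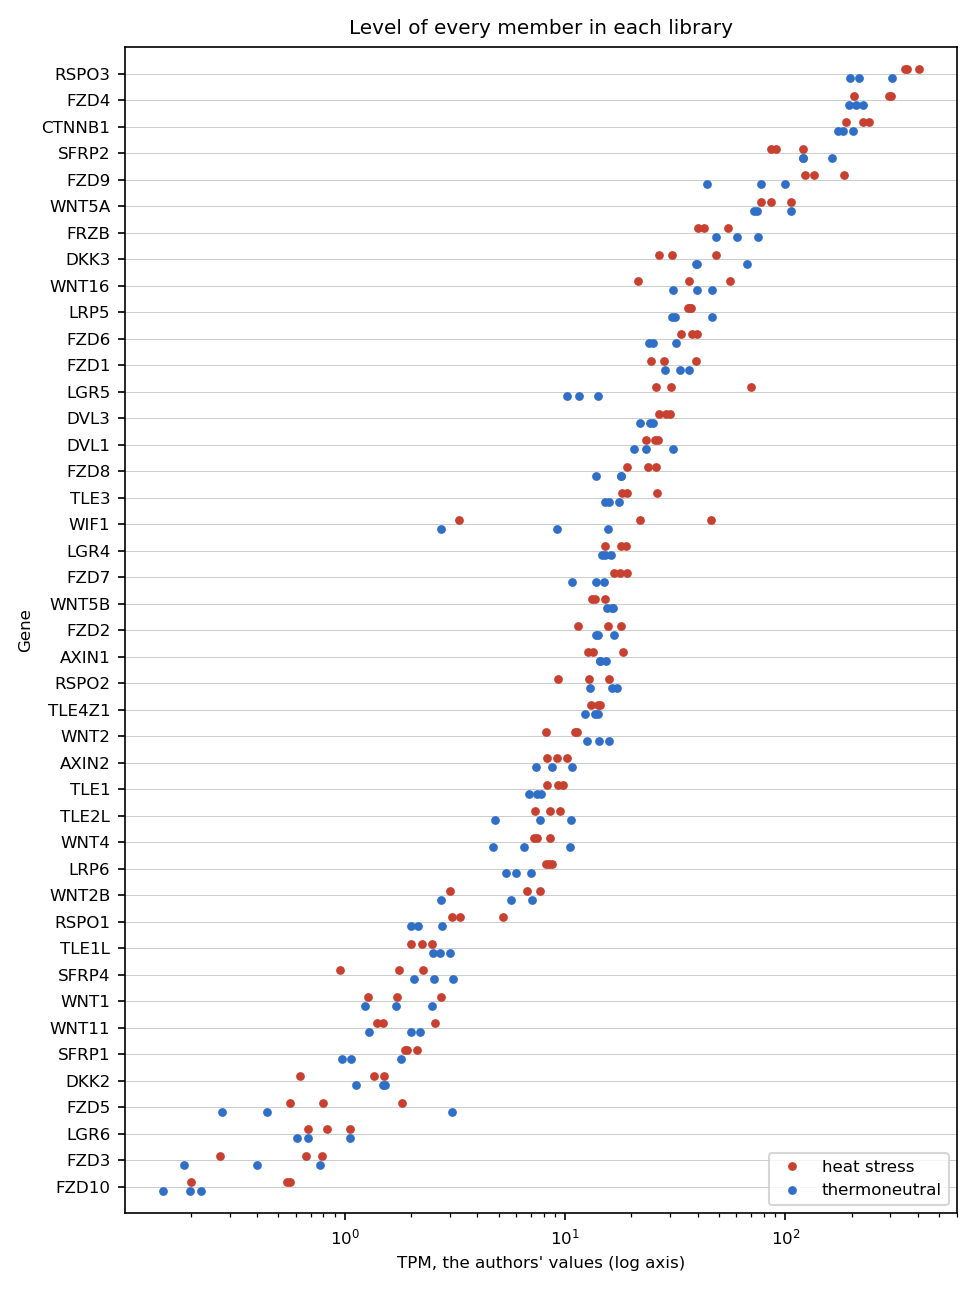
TPM of each of the 43 genes in each of the 6 libraries, on a log axis, with heat stress libraries in red above thermoneutral libraries in blue. RSPO3, FZD4 and CTNNB1 stand at the top. LGR5, RSPO3 and FZD9 are among the genes whose groups are apart.

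The comparison asked how chronic heat changed gene expression in fat. The widest difference among these genes was in LGR5, a receptor for R-spondins and a target gene of the pathway, which was 3.28-fold higher in heat-stressed fat without passing the test over all genes (FDR = 0.0860). RSPO3 was 1.45-fold and FZD9 1.87-fold higher, while SFRP2, FRZB and the ligand WNT2 were 1.46-fold, 1.43-fold and 1.49-fold lower, and none of these passed either. CTNNB1 and AXIN2 differed by less than their standard errors. In whole tissue, fewer cells of a type and less RNA per cell cannot be told apart.

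In edgeR's quasi-likelihood test on the counts, with Benjamini-Hochberg adjustment over all genes (FDR), 0 of the 42 genes that passed the filter on low counts were past an FDR of 0.05. Over all 14743 genes tested 26 were, or 0.176%. At an unadjusted p under 0.05 stood 10 of the 42, 6 higher and 4 lower in heat stress, against 18.8% of all genes (9.56% higher and 9.2% lower). DESeq2 called 4 of the 42 at its adjusted p under 0.05, LGR5 and FZD9 higher and SFRP2 and WNT2 lower, against 9.17% of all genes (5.08% higher and 4.09% lower). The same 4 genes were under an adjusted p of 0.05 in the authors' deposited table, where 9.18% of all genes with an adjusted p were. The groups did not overlap in 12 of the 42, 8 higher and 4 lower, against 25% of all genes (12.6% higher and 12.4% lower). Counts for these genes were therefore near those of the whole table. Their median log2 fold change was 0.0019, and that of all genes was -0.0045. Because FDR values of single genes rest on 3 libraries a group, a gene that missed the threshold is not shown to be equal in both groups.

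**Figure D2:**
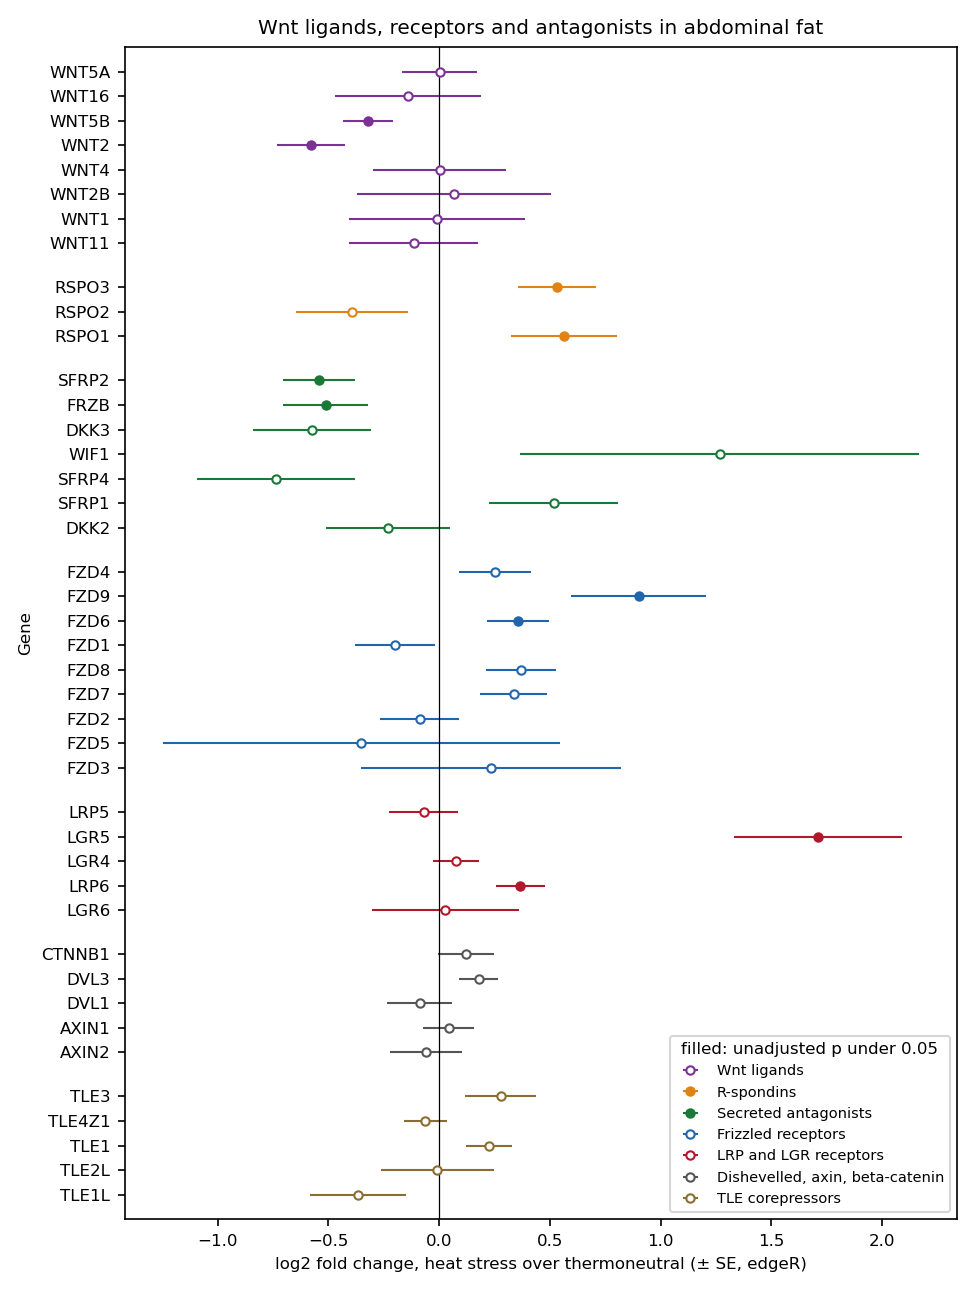
Log2 fold change, heat stress over thermoneutral, with its standard error for the 42 genes tested, grouped by role and ordered by TPM within a role. Filled points are the 10 genes at an unadjusted p under 0.05, of which LGR5 at 1.71 lies farthest to the right.

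Values by library are in CPM, counts per 1e+06 counts of tested genes after TMM scaling, and are given in the order of libraries 1, 2 and 3 of each group. Among the ligands, WNT2 had 20.8, 20.6 and 15.5 CPM in heat-stressed fat and 28.9, 24.9 and 31.2 CPM in thermoneutral fat. All 3 heat stress libraries lay below all 3 thermoneutral ones, with a log2 fold change of -0.58 ± 0.15 (SE, FDR = 0.118). WNT5B, a ligand that mostly acts without beta-catenin, had 12.8, 13.7 and 14.6 CPM in heat-stressed fat and 18.3, 16.3 and 16.7 CPM in thermoneutral fat. Its groups were also apart, by a smaller step (log2 fold change -0.32 ± 0.11, FDR = 0.195).

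WNT5A, a relative of WNT5B that also acts mainly without beta-catenin, had 176, 209 and 158 CPM in heat-stressed fat and 158, 159 and 225 CPM in thermoneutral fat. The groups overlapped and their means were 181 ± 25.7 and 180 ± 38.2 CPM (SD, n = 3 each). WNT11 had 4.92, 8.32 and 5.01 CPM in heat-stressed fat and 7.14, 7.80 and 4.83 CPM in thermoneutral fat, again overlapping. WNT16, WNT4, WNT2B and WNT1 had log2 fold changes between -0.14 and 0.07 with standard errors of 0.30 to 0.44. WNT16 ranged from 38.2 to 98.5 CPM among heat stress libraries alone. The summed level of the 8 ligands was 136 to 188 TPM in heat-stressed fat and 150 to 205 TPM in thermoneutral fat.

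The R-spondins did not share a direction. RSPO3 had 161, 138 and 141 CPM in heat-stressed fat and 131, 82.3 and 91.1 CPM in thermoneutral fat. The groups were apart, but thermoneutral 1 came close to the heat stress libraries (log2 fold change 0.53 ± 0.18, FDR = 0.179). RSPO1 had 5.89, 9.09 and 5.98 CPM in heat-stressed fat and 4.64, 5.35 and 4.18 CPM in thermoneutral fat. These groups were also apart (log2 fold change 0.57 ± 0.24, FDR = 0.266), and without heat stress 2 the log2 fold change was 0.33. RSPO2 went the other way, with means of 4.40 ± 1.07 CPM in heat-stressed fat and 5.78 ± 0.88 CPM in thermoneutral fat (FDR = 0.454).

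LGR5 had 192, 81.4 and 72.3 CPM in heat-stressed fat and 34.8, 29.7 and 41.1 CPM in thermoneutral fat. The lowest heat stress library lay above the highest thermoneutral one, and heat stress 1 stood far above the other libraries. The log2 fold change of 1.71 ± 0.38 came to 1.13 once heat stress 1 was left out. Its FDR was 0.0581 to 0.208 when any 1 library was left out, and DESeq2's adjusted p was 0.000100. LGR4, its more abundant relative in thermoneutral fat, had 44.8, 41.2 and 36.1 CPM in heat-stressed fat and 38.9, 40.3 and 36.8 CPM in thermoneutral fat. Per length, LGR5 stood at 41.9 ± 24.1 TPM and LGR4 at 17.3 ± 1.98 TPM in heat-stressed fat, against 12.0 ± 1.98 TPM for LGR5 and 15.3 ± 0.69 TPM for LGR4 in thermoneutral fat. LGR6, the least abundant of these receptors, had a log2 fold change of 0.03 ± 0.33.

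**Figure D3:**
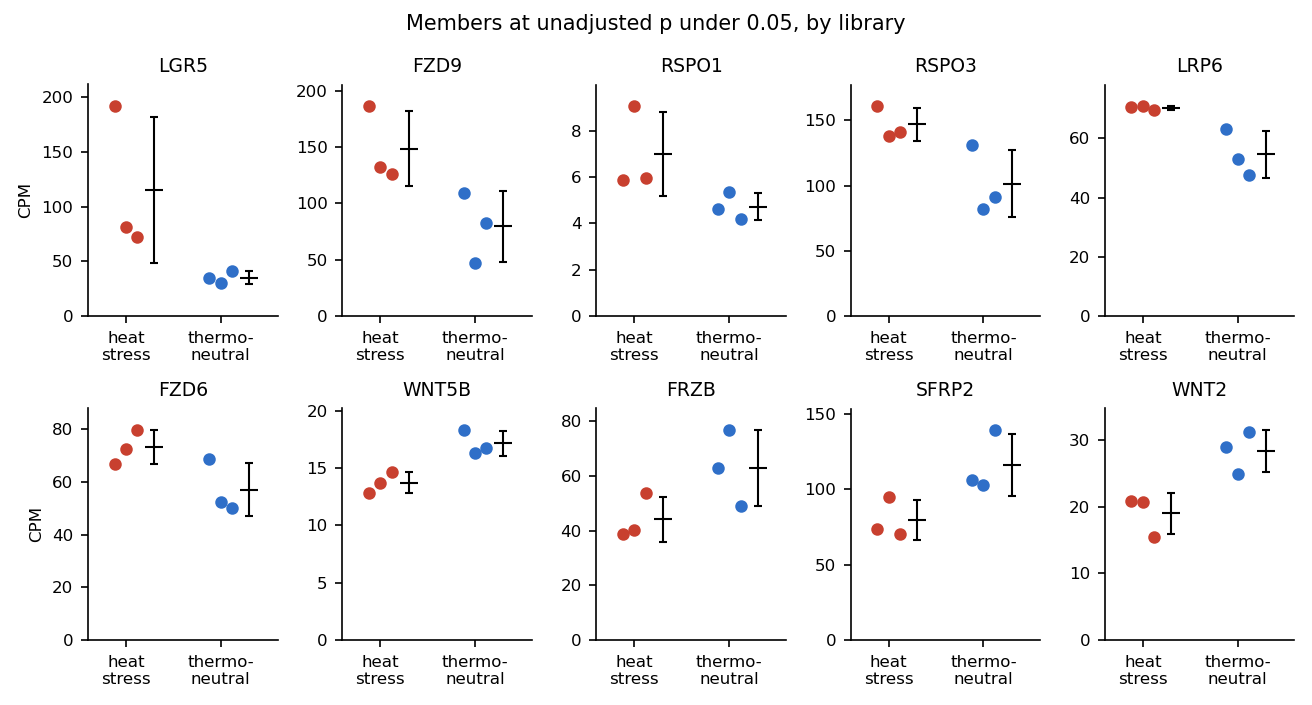
CPM in each library for the 10 genes at an unadjusted p under 0.05, with heat stress libraries in red left of thermoneutral libraries in blue and the mean ± SD of 3 libraries in black. LGR5 in heat stress 1 reached 192 CPM, and only FZD6 and FRZB show groups that overlap. Picking genes by p favours groups that are apart. Of the 42 Wnt genes tested 28.6% were apart, against 25% of all genes.

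Of the 9 Frizzled receptors that passed the filter on low counts, FZD9 had the highest log2 fold change. It had 187, 133 and 126 CPM in heat-stressed fat and 109, 47.1 and 82.3 CPM in thermoneutral fat. All 3 heat stress libraries were above all 3 thermoneutral ones (log2 fold change 0.90 ± 0.30, FDR = 0.182, and adjusted p = 0.0361 in DESeq2). FZD6, known in mouse for tissue polarity, had 67.0, 72.5 and 79.9 CPM in heat-stressed fat and 68.7, 52.5 and 50.2 CPM in thermoneutral fat. Heat stress 1 lay just below thermoneutral 1, so the groups overlapped (log2 fold change 0.36 ± 0.14, FDR = 0.229). FZD4, which in mammals also binds the non-Wnt ligand Norrin, had 371, 533 and 540 CPM in heat-stressed fat and 442, 371 and 401 CPM in thermoneutral fat. Heat stress 1 was as low as the lowest thermoneutral library, and the log2 fold change of 0.25 ± 0.16 came to 0.41 once that library was left out. FZD7 and FZD8 had log2 fold changes of 0.34 ± 0.15 and 0.37 ± 0.16, the first without overlap. FZD1, FZD2, FZD3 and FZD5 ran from -0.35 to 0.23. FZD5 had the widest error of them (0.90), and its log2 fold change of -0.35 came to 1.40 once thermoneutral 2 was left out. FZD10, the gene that did not pass the filter on low counts, had 27, 27 and 9 counts in heat stress libraries and 8, 8 and 6 counts in thermoneutral libraries.

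The co-receptor LRP6 had 70.5, 70.9 and 69.6 CPM in heat-stressed fat and 63.1, 53.1 and 47.5 CPM in thermoneutral fat. The heat stress libraries were almost equal and lay above all thermoneutral ones (log2 fold change 0.37 ± 0.11, FDR = 0.157). LRP5 had 89.7, 89.4 and 92.8 CPM in heat-stressed fat and 84.6, 79.9 and 121 CPM in thermoneutral fat. Here the groups overlapped, and the sign of the log2 fold change (-0.07 ± 0.16) turned without thermoneutral 3.

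Secreted antagonists split as well. SFRP2 had 73.7, 94.9 and 70.5 CPM in heat-stressed fat and 106, 103 and 140 CPM in thermoneutral fat. The groups were apart in CPM (log2 fold change -0.54 ± 0.16, FDR = 0.148, and adjusted p = 0.0381 in DESeq2). In TPM they overlapped narrowly, at 119.8 TPM in heat stress 2 and 119.6 TPM in thermoneutral 2. FRZB, a relative of SFRP2 first known from cartilage, had 38.9, 40.1 and 53.7 CPM in heat-stressed fat and 63.0, 77.0 and 49.2 CPM in thermoneutral fat. Heat stress 3 was above thermoneutral 3, so these groups overlapped (log2 fold change -0.51 ± 0.19, FDR = 0.218). SFRP4 had 1.38, 3.17 and 2.60 CPM in heat-stressed fat and 4.002, 3.15 and 4.75 CPM in thermoneutral fat, overlapping by a narrow margin. Its log2 fold change of -0.74 came to -0.46 once heat stress 1 was left out. SFRP1 had 3.52, 3.80 and 3.49 CPM in heat-stressed fat and 1.97, 3.50 and 2.08 CPM in thermoneutral fat. It was the only SFRP gene with a positive log2 fold change (0.52 ± 0.29, FDR = 0.392). Thermoneutral 2 lay between the heat stress libraries, and without it the log2 fold change was 0.83.

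DKK3, a divergent member of the DKK family, had 28.7, 46.1 and 28.7 CPM in heat-stressed fat and 43.0, 69.6 and 41.5 CPM in thermoneutral fat. Heat stress 2 and thermoneutral 2 were the highest libraries of their groups, and the log2 fold change of -0.57 ± 0.27 came to -0.30 once thermoneutral 2 was left out. DKK2, which binds LRP6, had 3.06, 2.70 and 1.86 CPM in heat-stressed fat and 2.50, 3.25 and 3.18 CPM in thermoneutral fat. WIF1, which binds Wnt proteins directly, had 2.99, 40.5 and 19.9 CPM in heat-stressed fat and 2.70, 14.9 and 8.73 CPM in thermoneutral fat. Its means were 21.1 ± 18.8 CPM in heat-stressed fat and 8.79 ± 6.12 CPM in thermoneutral fat (SD). The heat stress SD, but not the thermoneutral SD, was wider than the distance between these means (log2 fold change 1.27 ± 0.90, FDR = 0.502). Without heat stress 2 the log2 fold change was 0.38, and over all 6 ways of leaving out 1 library it ran from 0.38 to 1.88.

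Summed over a family in TPM, R-spondins reached 363 to 421 TPM in heat-stressed fat and 211 to 323 TPM in thermoneutral fat, and Frizzled receptors 516 to 574 TPM in heat-stressed fat and 342 to 438 TPM in thermoneutral fat. LGR receptors summed to 42.1 to 89.3 TPM in heat-stressed fat and 26.9 to 29.5 TPM in thermoneutral fat. The SFRP genes with FRZB summed to 134 to 167 TPM in heat-stressed fat and 184 to 215 TPM in thermoneutral fat. The TLE sum was 50.9 to 60.0 TPM in heat-stressed fat and 44.6 to 48.9 TPM in thermoneutral fat. None of these 5 sums overlapped between the groups. The sums of the WNT, DKK, LRP, DVL and AXIN genes did overlap, as did CTNNB1 and WIF1 taken alone. Of all single genes 25% did not overlap in CPM, and no such share was taken for sums in TPM. The first 4 sums were each led by 1 or 2 genes (RSPO3, FZD4 with FZD9, LGR5 in heat-stressed fat, and SFRP2). On the TPM scale the median gene of the whole table was itself higher in heat stress, by 0.09 on the log2(TPM + 1) scale, and the sums are not corrected for it. The TLE sums came closest, at 50.9 TPM in heat stress 2 and 48.9 TPM in thermoneutral 1. That gap was narrower than the shift of the median gene, so it is not read as a difference. On the log2(TPM + 1) scale, in limma, 9 of the Wnt genes stood higher and 2 lower at an unadjusted p under 0.05, in place of 6 and 4 from the counts. In the same limma fit 16.3% of all genes stood higher and 4.97% lower.

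**Figure D4:**
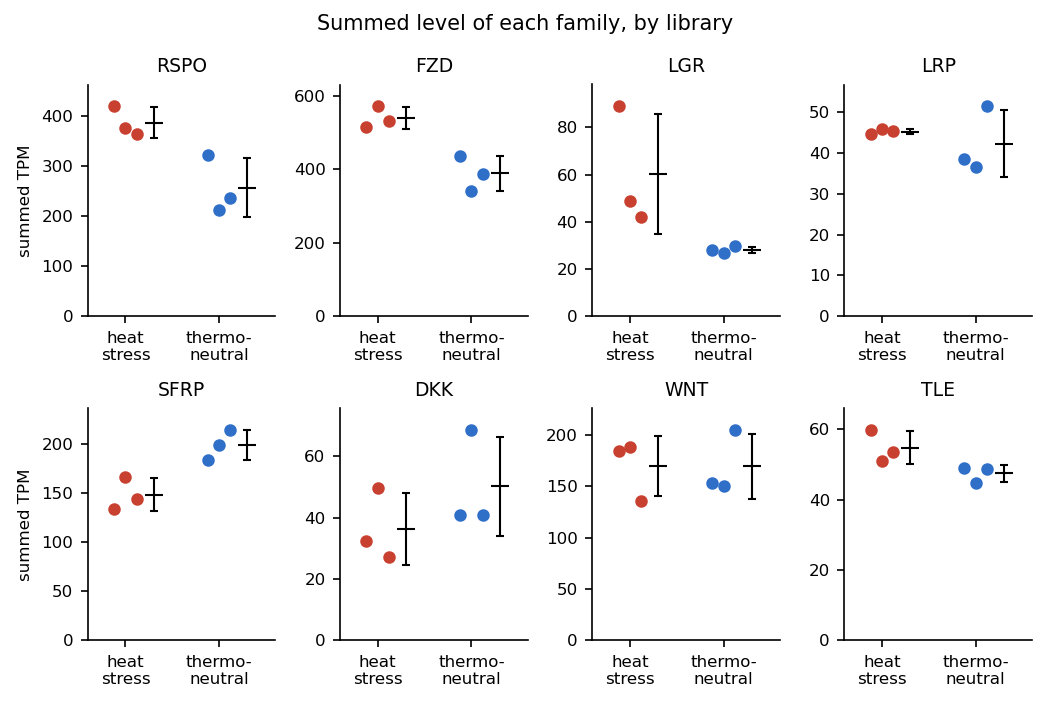
Summed TPM of 8 families in each library, with heat stress in red left of thermoneutral in blue and the mean ± SD of 3 libraries in black. RSPO, FZD, LGR and TLE sums are higher and SFRP sums (with FRZB) lower in heat-stressed fat without overlap, while WNT, DKK and LRP sums overlap. The gap of the TLE sums is narrower than the shift of the median gene on the TPM scale.

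Markers of other cell types also differed between the groups. Endothelial markers (16 of 17 looked for were measured) summed to 2177 to 2590 TPM in heat-stressed fat and 1570 to 1992 TPM in thermoneutral fat, and 10 of them were higher and 0 lower at an unadjusted p under 0.05. Preadipocyte and fibroblast markers (15 of 15) summed to 16224 to 20180 TPM in heat-stressed fat and 22566 to 27018 TPM in thermoneutral fat, with 1 higher and 9 lower. Over all genes 9.56% were higher and 9.2% lower at that p. Collagens led the second sum, with means of 11114 TPM for COL3A1, 2964 TPM for COL1A2 and 2260 TPM for COL1A1 over the libraries. The higher gene was PDGFRB, CD34 and DLK1 had positive log2 fold changes with overlap, and the other 12 had negative ones. The endothelial list moved in the direction of RSPO3, LRP6, LGR5 and FZD9, as did 8 of the 10 adipocyte markers, with 2 going the other way. At that p, LPL (2.26-fold) and CEBPA (2.14-fold) stood higher among the adipocyte markers and PNPLA2 (2.32-fold) lower. Groups were apart in 5 adipocyte markers, 4 higher and 1 lower in heat-stressed fat. Of all genes 25% were apart (12.6% higher and 12.4% lower). The preadipocyte and fibroblast list moved in the direction of SFRP2, FRZB and WNT2. So did 9 of the 11 smooth muscle and pericyte markers tested, with 1 higher and 5 lower at that p. The higher gene was RGS5 (1.57-fold, without overlap), and CSPG4 also had a positive log2 fold change, with overlap. Of the 6 erythrocyte markers tested, 5 had negative log2 fold changes, with 0 higher and 3 lower at that p. The remaining gene, looked for as ALAS2, is listed as ALAS1 and had a log2 fold change of 0.06. The part of any of these lists in those results was not tested.

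Of the genes that act inside the cell, none of the 2 dishevelled, 2 axin and 5 TLE genes or CTNNB1 stood at an unadjusted p under 0.05 in edgeR. Of all genes 18.8% did, and so few genes cannot show a lower share than that. CTNNB1 had 296, 376 and 370 CPM in heat-stressed fat and 351, 315 and 291 CPM in thermoneutral fat (log2 fold change 0.12 ± 0.13). DVL3, a dishevelled protein, had 65.3, 60.5 and 58.9 CPM in heat-stressed fat and 50.3, 55.2 and 57.7 CPM in thermoneutral fat. Its groups were just apart (log2 fold change 0.18 ± 0.09, FDR = 0.326), whereas DVL1 stood at -0.09 ± 0.15. AXIN1, a scaffold of the complex that breaks down beta-catenin, had 25.3, 27.8 and 29.5 CPM in heat-stressed fat and 24.8, 25.5 and 29.7 CPM in thermoneutral fat. AXIN2, a feedback target of the pathway, had 12.3, 13.3 and 11.2 CPM in heat-stressed fat and 10.7, 12.4 and 15.3 CPM in thermoneutral fat. Both axin genes overlapped between groups, with log2 fold changes of 0.04 ± 0.11 and -0.06 ± 0.16.

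Among the TLE co-repressors, TLE3 had 54.6, 37.0 and 40.2 CPM in heat-stressed fat and 39.9, 33.6 and 35.2 CPM in thermoneutral fat. Heat stress 1 stood above the rest and heat stress 2 fell within the thermoneutral range (log2 fold change 0.28 ± 0.16, and 0.0931 without heat stress 1). TLE1 was higher and TLE1L lower without overlap (log2 fold changes 0.22 ± 0.10 and -0.37 ± 0.22), and TLE4Z1 and TLE2L stood at -0.06 and -0.0077. TLE1 and TLE1L may share reads as related copies, so the split between them is uncertain.

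Of the other genes of the pathway, 117 were listed and tested. In edgeR 0 passed the FDR, and 20 were higher and 17 lower at an unadjusted p under 0.05. DESeq2 called 11 higher and 6 lower, against 5.08% of all genes higher and 4.09% lower. In edgeR 37 of 117 (31.6%) stood at an unadjusted p under 0.05, beside 18.8% of all genes (9.56% higher and 9.2% lower). The median log2 fold change of the 117 was 0.04. The list of co-receptors and proteins of receptor turnover (17 tested, median -0.06) had 4 higher and 0 lower at that p. The 4 were LRP4, PTK7, GREM1 and SOST. SOST encodes a blocker of LRP5 and LRP6, so this is not a count of receptors alone. Secretion and ligand processing (12 tested, median 0.0013) had 2 each way, and the destruction complex with its regulators (18 tested, median 0.04) likewise. Nuclear partners of beta-catenin (22 tested, median 0.11) had 7 higher and 3 lower. The 7 were CTNNBIP1, SOX17, BCL9L, BCL9, CBY1, CTBP2 and NLK. Of these, SOX17 is also in the endothelial list above, and CTNNBIP1 keeps beta-catenin from binding TCF factors. The planar polarity and calcium branch (32 tested, median 0.05) had 5 each way. Known canonical target genes (22 tested, median -0.12) had 0 higher and 7 lower. The lists share genes. TCF7 and LEF1, both lower, count among the nuclear partners and again among the target genes. ZNRF3, RNF43, NOTUM and APCDD1 are target genes that also stand in another list.

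SOST, whose protein sclerostin blocks LRP5 and LRP6 and is best known from mammalian bone, had 137, 136 and 115 CPM in heat-stressed fat and 61.6, 30.1 and 47.8 CPM in thermoneutral fat. The groups were far apart (log2 fold change 1.48 ± 0.24), and its FDR of 0.0573 fell just short of the threshold. LRP4, a receptor that binds sclerostin in mammals, had 21.3, 18.5 and 18.5 CPM in heat-stressed fat and 13.2, 13.9 and 10.8 CPM in thermoneutral fat (log2 fold change 0.62 ± 0.14). PTK7, a kinase-like co-receptor, had 109, 108 and 97.7 CPM in heat-stressed fat and 80.0, 76.2 and 71.2 CPM in thermoneutral fat (log2 fold change 0.47 ± 0.08). The groups were apart for both genes, with FDR values of 0.0844 for LRP4 and 0.0617 for PTK7.

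GPC4, a cell-surface glypican that binds Wnt proteins, had 1320, 762 and 790 CPM in heat-stressed fat and 564, 441 and 371 CPM in thermoneutral fat. Heat stress 1 was the highest library, as it was for LGR5, and the log2 fold change of 1.06 ± 0.26 came to 0.76 once it was left out. CPZ, a carboxypeptidase with a Frizzled-like domain, had 34.3, 31.2 and 25.2 CPM in heat-stressed fat and 63.0, 40.3 and 50.6 CPM in thermoneutral fat. WLS, which carries Wnt proteins to the cell surface, had 131, 182 and 183 CPM in heat-stressed fat and 171, 184 and 217 CPM in thermoneutral fat, overlapping. NFATC1, a transcription factor of the calcium branch, had 102, 111 and 88.8 CPM in heat-stressed fat and 39.0, 59.3 and 38.7 CPM in thermoneutral fat (log2 fold change 1.14 ± 0.19, FDR = 0.0573). ROR2, a receptor of WNT5A in mammals, had 10.8, 13.6 and 11.4 CPM in heat-stressed fat and 9.84, 11.1 and 11.5 CPM in thermoneutral fat.

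CTNNBIP1, which keeps beta-catenin from binding TCF factors, had 92.4, 92.3 and 107 CPM in heat-stressed fat and 75.8, 60.1 and 60.6 CPM in thermoneutral fat (log2 fold change 0.57 ± 0.12, FDR = 0.0787). GSK3B, the kinase that marks beta-catenin for breakdown, had 156, 130 and 152 CPM in heat-stressed fat and 115, 111 and 118 CPM in thermoneutral fat, without overlap. APC, its partner in the same complex, had 60.7, 52.7 and 58.4 CPM in heat-stressed fat and 48.9, 51.5 and 51.5 CPM in thermoneutral fat, apart by a narrow margin. HDAC2, a histone deacetylase, had 113, 107 and 106 CPM in heat-stressed fat and 146, 148 and 128 CPM in thermoneutral fat, which placed every heat stress library below the others.

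The TCF factors differed from each other. TCF7 had 3.08, 3.17 and 3.22 CPM in heat-stressed fat and 9.37, 21.9 and 7.31 CPM in thermoneutral fat (log2 fold change -2.02 ± 0.41, FDR = 0.0758, and -1.41 without thermoneutral 2). LEF1 had 0.87, 1.09 and 0.52 CPM in heat-stressed fat and 3.47, 2.61 and 1.99 CPM in thermoneutral fat (log2 fold change -1.69 ± 0.38). TCF7L2 had 81.6, 102 and 123 CPM in heat-stressed fat and 90.8, 92.1 and 92.1 CPM in thermoneutral fat, with overlap and a log2 fold change of 0.16 ± 0.14. TCF7 and LEF1 are also well known from T cells. The 13 T cell markers summed to 162 to 181 TPM in heat-stressed fat and 240 to 262 TPM in thermoneutral fat, and all 13 had negative log2 fold changes. Their median was -0.64, smaller in size than the values of TCF7 and LEF1. In thermoneutral libraries 1, 2 and 3 they summed to 240, 262 and 257 TPM, a much flatter course than that of TCF7. B cell markers (159, 263 and 205 TPM) and cycling cell markers (84.2, 141 and 82.2 TPM) were, like TCF7 but unlike LEF1, clearly highest in thermoneutral 2. The part of any of these cells in the values of TCF7 and LEF1 was not tested.

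The 7 target genes that were lower at an unadjusted p under 0.05 were TCF7, LEF1, CD44, WISP1, RUNX2, MYC and TWIST1. Only TCF7 and LEF1 were chosen by name. CD44 and WISP1 are given by library because of their small p, and the last 3 were named after their values were seen. CD44, a receptor for hyaluronan, had 61.0, 53.5 and 48.2 CPM in heat-stressed fat and 73.4, 98.05 and 79.0 CPM in thermoneutral fat (log2 fold change -0.62 ± 0.14). WISP1, a secreted matricellular protein, had 4.46, 4.04 and 2.62 CPM in heat-stressed fat and 8.004, 9.74 and 6.65 CPM in thermoneutral fat (log2 fold change -1.13 ± 0.27). Markers of other cells were also lower in heat-stressed fat. At an unadjusted p under 0.05 stood 8 of 10 cycling cell markers, 6 of 11 macrophage and dendritic cell markers, 4 of 8 B cell markers and 10 of 13 T cell markers, all of them lower. Of all genes 9.2% were lower at that p. Cycling cell markers summed to 54.0 to 81.9 TPM in heat-stressed fat and 82.2 to 141 TPM in thermoneutral fat, just without overlap. Macrophage and dendritic cell markers summed to 842 to 1367 TPM in heat-stressed fat and 1129 to 1645 TPM in thermoneutral fat, and B cell markers to 70.1 to 185 TPM in heat-stressed fat and 159 to 263 TPM in thermoneutral fat, both with overlap. The part of these cells in the 7 target genes was not tested. NKD1, a feedback inhibitor, had 27.6, 23.1 and 20.1 CPM in heat-stressed fat and 19.9, 21.3 and 21.8 CPM in thermoneutral fat, and its groups overlapped. Among the Wnt genes that are themselves targets, LGR5 was higher and AXIN2 overlapped between the groups, as given above.

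**Figure D5:**
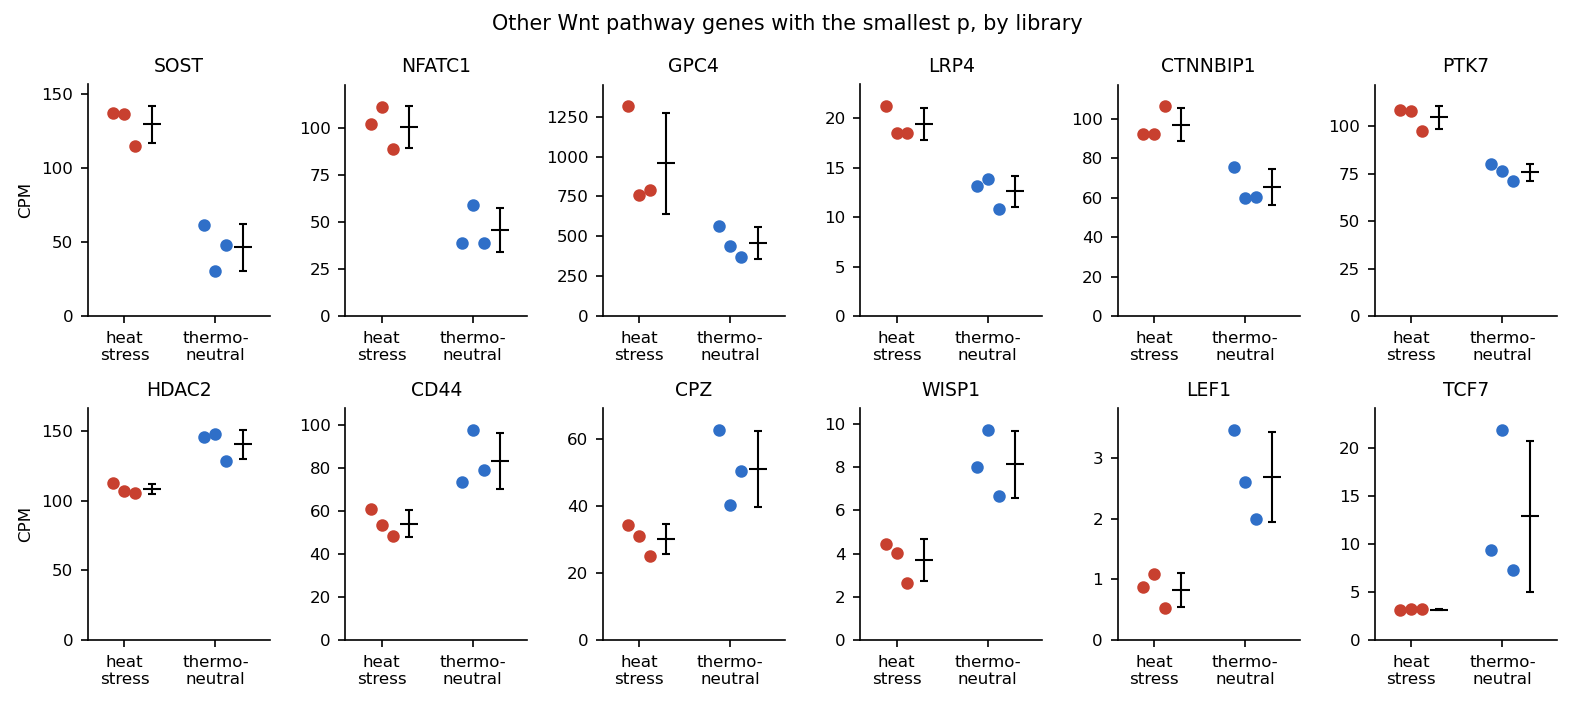
CPM in each library for the 12 other pathway genes with the smallest p, with heat stress in red left of thermoneutral in blue and the mean ± SD of 3 libraries in black. In all 12 the groups are apart, 6 higher and 6 lower in heat-stressed fat, and none passed an FDR of 0.05 in edgeR. Picking genes by p favours groups that are apart. Of the 117 other pathway genes 32.5% were apart, against 25% of all genes.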

How the data were processed

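The deposited table holds raw read counts for each gene, besides FPKM values and TPM values that the authors had scaled, as its header names them (per the file headers). Its signed fold changes (heat stress to thermoneutral ratios, negative where lower), raw p-values and adjusted p-values are the authors' own, per the file headers. HISAT2 2.1.0, StringTie 2.1.3b and Bowtie2 2.3.4.1 and the build GRCg6a are named, without roles, per the submitters' processing notes. The kit is stranded per the labels' protocols, but whether strand was used in counting is not given in the sources used here, so overlapping antisense genes cannot be told apart. No coordinates or sequences are printed, since no genome of that build was at hand. The labels name no batch.

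All 15491 genes entered edgeR 4.0.16 (R 4.3.3) with TMM scaling and filterByExpr, which left 14743 genes, and a quasi-likelihood F test of heat stress over thermoneutral. Standard errors are the size of the log2 fold change over the root of F. Alternatives used DESeq2 1.42.0 and limma 3.58.1 on log2(TPM + 1), log2(TPM + 0.1) and log2(FPKM + 1). The scripts were tested on simulated data. In the smallest library 1 CPM was 30.0 counts. Nothing in the labels says that each library is 1 chicken, so the p-values rest on the spread among libraries, which may be technical. An exact permutation test of 3 against 3 libraries cannot go below p = 0.1 and was not used. The 36 other per-library columns were left unused. Counts of libraries in a group differed by more than sampling noise (chi-square of 34.4 to 98.2 per degree of freedom), so each library was kept as 1 replicate.

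Values by library were given for genes at an unadjusted p under 0.05, for the most abundant of each family and for 15 listed genes of 17 chosen by name. Among other pathway genes they were given for the 12 of smallest p and 8 chosen by name, 18 in all since TCF7 and LEF1 were in both. The genes, lists and tests were chosen with earlier results of these data known.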

Additional observations from a re-analysis of the deposited data

How the results depend on the processing

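With 3 libraries a group an FDR above 0.05 does not show equality, and what depth limits was not tested. Members past the FDR stayed at 0 in every edgeR and limma alternative and were 4 in DESeq2. Those at an unadjusted p under 0.05 numbered 9 to 12 over the alternatives with all libraries (10 in the main test) and 7 to 10 with 1 library left out. The share of all genes at that p also moved with the fit. It was 9.56% higher and 9.2% lower in the main test, against 16.3% higher and 4.97% lower in limma on log2(TPM + 1). The member counts are not set against all genes fit by fit, so their narrow range is not read as a stable difference from all genes. The members' median log2 fold change moved to 0.0878, 0.15 and 0.11 on log2(TPM + 1), on log2(TPM + 0.1) and on log2(TPM + 1) with no filter, where the median of all genes moved by 0.09, 0.10 and 0.07, and lay between -0.0334 and 0.0897 with 1 library left out.

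All genes past the FDR numbered 1352 in DESeq2, 133 with at least 1 CPM in all 6 libraries, 99 with library totals, 219, 239 and 143 in the 3 TPM fits, 107 on FPKM and 3 to 35 with 1 library left out. Other pathway genes past the FDR numbered 17, 2, 1, 4, 4, 1 and 1 in these fits and 0 to 1 with 1 library left out (NFATC1 without thermoneutral 2). The cause was not tested. With the replicate number as a replicate block there were 95 genes in all, 2 other pathway genes and 0 members. Same-numbered libraries deviated together with correlations of 0.08, 0.24 and 0.04 across genes, and not every library correlated best with its own number, so the block is not read as pairing.

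For the 25 Wnt genes given by library, 24 of 400 values under the alternatives had the other sign, all in 5 genes whose log2 fold change was near 0. For the other 17 tested, 42 of 268 values did, in 11 genes, of which FZD5 moved farthest (-0.35, and 1.40 without thermoneutral 2). WNT5A stood at -0.00010 in DESeq2, at -0.00010 with RLE scaling and at -0.00082 with the 1 CPM filter, and ran from -0.11 to 0.19 with 1 library left out. AXIN1 stood at -0.00497, -0.00628 and -0.00497 in the 3 TPM fits and at -0.0771 on FPKM. In the same 3 fits AXIN2 stood at 0.0457, 0.0513 and 0.0457 and LRP5 at 0.0519, 0.0538 and 0.0519. With 1 library left out AXIN1 ran from -0.0073 to 0.13, AXIN2 from -0.17 to 0.0897, LRP5 from -0.19 to 0.14 and WNT11 from -0.41 to 0.0212. None of the 10 members at an unadjusted p under 0.05 turned its sign. They were picked by p in the same libraries, which makes a turned sign unlikely. Of the 6 fits with 1 library left out, RSPO1 stayed under that p in 1, and FZD6 and FRZB in 2. RSPO3 and WNT5B stayed under it in 3, FZD9 in 5, and LGR5, LRP6, SFRP2 and WNT2 in all 6.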

Other observations

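WIF1 was highest in heat stress 2 (40.5 CPM) and thermoneutral 2 (14.9 CPM), and so was FZD5, at 3.39 CPM in heat stress 2 and 6.21 CPM in thermoneutral 2. The 8 mesothelial markers listed, of 12 looked for, had their highest summed levels in the same libraries, at 101 TPM in heat stress 2 and 217 TPM in thermoneutral 2, against 44.2 to 45.8 TPM in the other heat stress libraries and 48.3 to 85.1 TPM in the other thermoneutral libraries. Single markers did not all do so. WT1 was highest in heat stress 1 among heat stress libraries (21.6 CPM, against 18.4 CPM in heat stress 2), and TBX18 was lowest in thermoneutral 2 among thermoneutral libraries (8.38 CPM). The part of these cells in the values of WIF1 and FZD5 was not tested.

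In the authors' deposited table LGR5 had a signed fold change of 3.27 and WNT2 one of -1.49, heat stress over thermoneutral, with adjusted p-values of 0.000104 and 0.0172.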
